A study of Mus musculus with 6 samples.

Results

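The 26S proteasome is the cell's main machine for the regulated breakdown of proteins, and its genes form a large family that is transcribed in nearly all cells. All rows of the deposited count table whose symbol starts with Psma, Psmb, Psmc, Psmd, Psme, Psmf or Psmg were taken, apart from Psmb8, Psmb9 and Psmb10, which gave 47 genes of the 24091 in the table. Of these, 46 had enough counts to be tested; the exception was Psmb11. The RNA came from hematopoietic stem cells, the bone marrow cells that renew the blood, sorted as negative for lineage markers and CD48 and positive for Sca-1, c-Kit and CD150. The aged group held 3 libraries (aged 1 to 3) from mice of 20 months, and the young group held 3 libraries (young 4 to 6) from mice of 2 months. All mice were labelled wt, and the labels name no strain, treatment or allele. Cells of 4 mice were pooled at the older age and of 30 mice at the younger. Whether these numbers are per sample or per age is not stated, so it is not known whether the libraries of an age are separate pools. A p-value here reflects variation among libraries, part or all of which may be technical. In such bulk samples, fewer cells of a type and less RNA per cell cannot be told apart.

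The core particle of the proteasome is a barrel of stacked rings. The outer alpha rings gate the entrance, and the inner beta rings carry the proteolytic sites, those of Psmb6 (caspase-like), Psmb7 (trypsin-like) and Psmb5 (chymotrypsin-like). A regulatory particle caps the barrel: its base holds the ATPases that unfold substrates and the receptors for ubiquitin, and its lid holds the deubiquitinase Psmd14. Dedicated chaperones build the complex, the PA28 and PA200 activators replace the regulatory particle on some barrels, and Psmf1 encodes PI31, first described as an inhibitor. In mammalian cells that lose proteasome activity the transcription factor Nrf1, encoded by Nfe2l1, raises most subunit genes together. Stem cells of the blood are known for low protein synthesis and for their sensitivity to misfolded protein.

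Promoters are shown for 4 members on which the results turn: Psme3, whose p was the smallest, Psmc3ip, whose fold change was the largest in size, Psmd14, the lid deubiquitinase, and Psmb6, the member with the highest level per length. Each runs from 250 bases before to 50 bases after a RefSeq transcript start, build GRCm38.p6, and is written 5′ to 3′ on the strand of the gene. Capitals mark matches to any of 5 motifs searched on both strands: TGACNNNGC, the core of the antioxidant response element to which Nrf1 binds; CCAAT, the box bound by NF-Y; CACGTG, the E-box; CCGGAAG, bound by ETS factors; and the palindromic motif of the nuclear respiratory factor NRF1 with 1 free base in its middle, a protein unrelated to the Nrf1 of Nfe2l1.
Psme3, chr11:101315963-101316262, plus strand: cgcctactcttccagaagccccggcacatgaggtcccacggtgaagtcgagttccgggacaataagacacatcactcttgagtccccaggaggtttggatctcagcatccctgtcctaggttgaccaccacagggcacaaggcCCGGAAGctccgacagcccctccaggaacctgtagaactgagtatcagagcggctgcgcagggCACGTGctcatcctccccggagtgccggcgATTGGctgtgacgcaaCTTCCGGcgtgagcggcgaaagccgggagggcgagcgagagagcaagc
Psmd14, chr2:61711444-61711743, plus strand: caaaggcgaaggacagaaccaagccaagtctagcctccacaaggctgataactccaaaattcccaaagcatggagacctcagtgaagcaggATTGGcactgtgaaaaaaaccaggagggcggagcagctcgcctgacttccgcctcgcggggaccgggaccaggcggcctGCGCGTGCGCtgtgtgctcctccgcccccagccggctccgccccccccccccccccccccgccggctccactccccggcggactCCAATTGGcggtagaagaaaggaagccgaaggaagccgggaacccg
Psmb6, chr11:70525107-70525406, plus strand: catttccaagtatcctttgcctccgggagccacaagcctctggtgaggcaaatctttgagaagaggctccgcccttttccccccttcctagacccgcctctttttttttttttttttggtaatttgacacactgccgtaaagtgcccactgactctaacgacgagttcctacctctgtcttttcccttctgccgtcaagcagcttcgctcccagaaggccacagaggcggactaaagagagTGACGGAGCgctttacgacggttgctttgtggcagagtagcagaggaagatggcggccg
Psmc3ip, chr11:101095386-101095685, minus strand: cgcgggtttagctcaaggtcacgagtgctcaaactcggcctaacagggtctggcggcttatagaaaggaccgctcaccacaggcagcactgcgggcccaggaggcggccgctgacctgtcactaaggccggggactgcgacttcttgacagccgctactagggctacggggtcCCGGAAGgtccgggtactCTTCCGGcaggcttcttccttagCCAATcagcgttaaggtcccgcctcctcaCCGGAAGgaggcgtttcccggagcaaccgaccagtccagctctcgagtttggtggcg

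The Psme3 promoter held 4 matches, to CCGGAAG on both strands, to CACGTG and to CCAAT. The Psmd14 promoter held 1 match to the NRF1 motif and 3 to CCAAT, of which 1 on each strand overlapped just after the start. The Psmb6 promoter held a single match, to TGACNNNGC, which ended at the last base before the start. The Psmc3ip promoter held 3 matches to CCGGAAG and 1 to CCAAT. RefSeq promoters were at hand for 39 of the 47 members, with 42 sequences. CCGGAAG stood in 16 of them (38.1%), against 8.86% of all 32851 promoters and 16.9% of those of tested genes. The NRF1 motif stood in 7 (16.7%), against 4.6% of all promoters and 9.56% of those of tested genes. TGACNNNGC stood in 6 (14.3%), those of Psmb5, Psmb6, Psmc6, Psmd9, Psmd12 and Psme4, against 12.4% and 14.7%. CCAAT stood in 14 (33.3%), against 37.4% and 37.8%, and CACGTG in 3 (7.14%), against 7.15% and 9.9%. A match is a run of letters and not a measured binding site.

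Libraries held 18613386 to 20107812 counts in the aged group and 16452829 to 21918658 in the young group. Members took 0.848% to 0.947% of all counts in aged libraries and 0.976% to 1.22% in young libraries, so that on unscaled totals the groups did not overlap. Young 4 stood apart: Pearson's r of its log2 CPM (counts per 1000000 counts of a library), taken over genes that are not independent of one another, was 0.951 with young 5 and 0.948 with young 6, while that of young 5 with young 6 was 0.989. Its scaling factor by the trimmed mean of M values (TMM) was 0.765, against 1.04 to 1.08 in the other 5, so scaling raised every CPM of young 4. Of 8 marker genes of the sort, 4 rose in aged cells and none fell. Of 4 genes of multipotent progenitors, Cd48, Flt3 and Cd34 fell and Cd27 was not called; their summed level was 271 to 314 CPM in aged and 425 to 426 CPM in young libraries. None of 8 macrophage genes was called; their sum was 36.9 to 39.3 CPM in aged and 44.6 to 76.2 CPM in young libraries. Sums in aged and young libraries were 1.58 to 2.73 and 2.10 to 4.13 CPM for 7 neutrophil genes, and 59.4 to 87.0 and 73.5 to 133 CPM for 6 B cell genes, nearly all of it Cd79b. For 6 T and NK cell genes the sums were 0.186 to 0.980 CPM in aged and 2.15 to 3.86 CPM in young libraries; Cd8a was at 0 counts in all 6 libraries, and Cd4 fell. The sums of erythroid, megakaryocyte and endothelial or stromal genes overlapped between the ages, with 0 of 5, 1 of 5 (Ppbp, lower) and 1 of 6 (Cxcl12, lower) tested genes called. The part of these cell types in the results was not tested.

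The comparison of aged with young cells asked which genes differ with age. Most proteasome genes had a lower level in aged than in young cells, by a modest amount, and no single one passed the test over all genes. The members' median deviation from the gene mean, in log2 CPM, was -0.26, -0.10 and -0.31 in aged 1, 2 and 3. It was 0.67, 0.077 and -0.036 in young 4, 5 and 6, so aged 2 and young 6 were close. Members measured in the same 6 libraries are not independent, and counts of members do not replicate age. Of the 46 members tested, 0 passed edgeR's quasi-likelihood test with an adjusted p of 0.05 as the threshold, against a background of 5.76% of 13413 tested genes (1.5% lower, 4.26% higher). In simulated data, drawn without a library set apart like young 4, this test called 18.4% of genes changed 2-fold. That rate need not hold here, and a member that was not called may still differ. At an unadjusted p under 0.05, 11 members (23.9%) were lower and 0 higher, against 11.1% of all tested genes lower and 13.9% higher. The log2 fold change, aged minus young, was below 0 for 41 members (89.1%), against 47.3% of all tested genes. The members' median was -0.48, against 0.04 over all tested genes. All 3 aged values lay below all 3 young values for 26 members (56.5%), against 17.6% of all tested genes, and the opposite held for 0 members, against 19%.

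How large the difference was depended on young 4. Members stood higher there than in the mean of young 5 and 6 by a median of 1.57-fold, against 1.014-fold over all tested genes, and young 4 was the highest library for 36 of the 46. Without young 4 the median of the members was -0.27, 41 were still below 0 (46.6% of all genes were), 16 (34.8%) had an unadjusted p under 0.05 and were lower (12.2% of all genes), and 29 (63%) had all aged values below young 5 and young 6 (22.9% of all genes). That fit called 1 member, Psmc3ip, lower (2.54% of all genes). Scaling moved the members' median as far: with no scaling beyond library size it was -0.27, while the median of all tested genes was 0.20. The members then stood 0.47 below all genes, against 0.52 with TMM; without young 4 they stood 0.30 below. In a fit that removed the GC and length trend of each library, the median of all tested genes was -0.08, the members stood 0.29 below it, and 2 were called lower, Psmc3ip and Psme3 (5.16% of all genes lower, 5.22% higher). That fit also moved the split of all calls to 686 higher and 679 lower, against 571 higher and 201 lower. DESeq2 (5.39% of all genes lower, 7.62% higher) and the likelihood ratio test (5.22% lower, 9.02% higher) called the same 2 members lower. Limma-voom with quality weights called 15 members lower and 2 higher, Psma8 and Psme4 (13.2% of all genes lower, 17.3% higher).

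**Figure D1:**
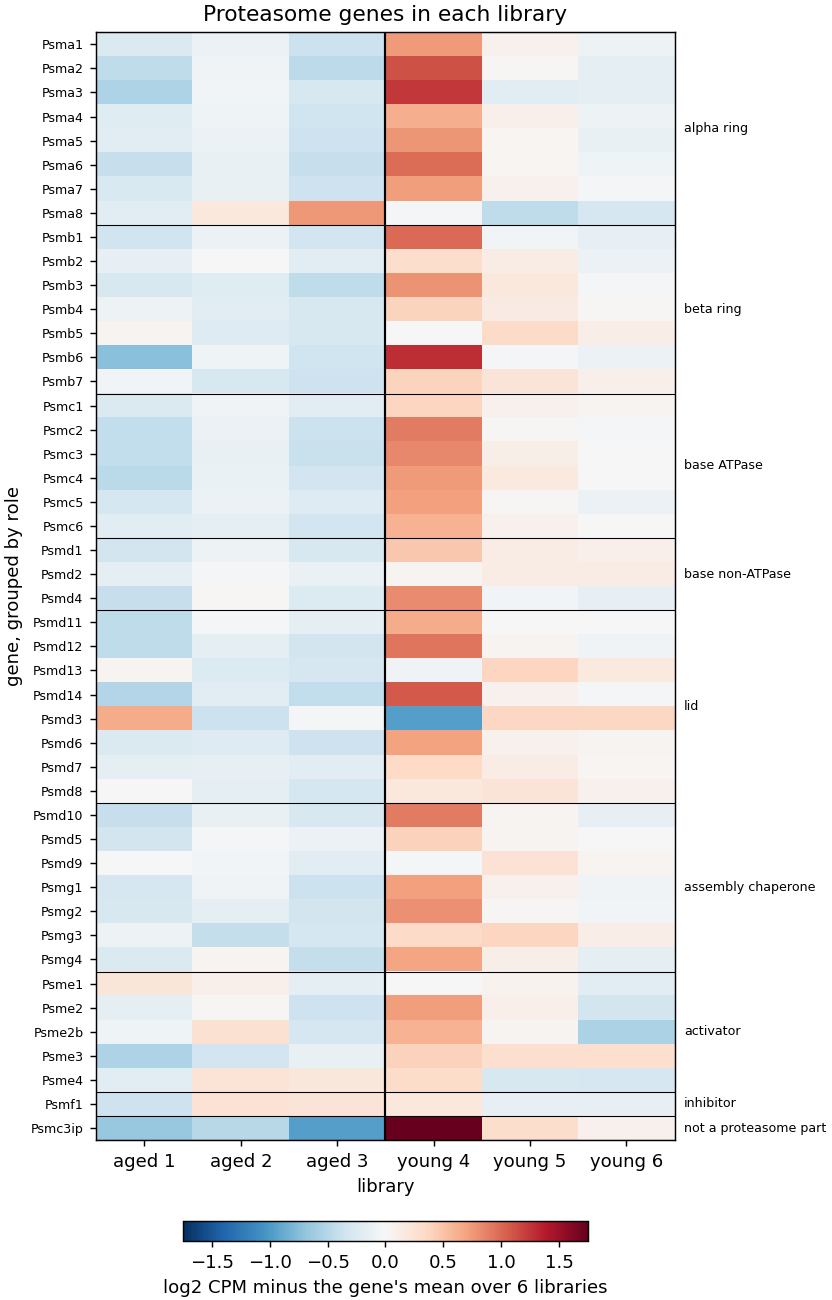
Heat map of the 46 tested genes (rows, grouped by role) in the 6 libraries (columns, aged left of young); colour is log2 CPM minus the gene's mean over the 6 libraries. Most rows are pale blue in aged 1 and aged 3, near white in aged 2 and strongest red in young 4, and Psmd3 is high in aged 1 and low in young 4.

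Among the alpha ring genes, 7 of 8 were below 0, with a median of -0.54, and 3 were lower without overlap between the ages. Over all tested genes, 47.3% were below 0 and 17.6% were lower without overlap. Psma1 to Psma7 encode the ring of the common particle, and Psma8 encodes the alpha subunit of the testis form. Psma7, the alpha gene with the highest level per length, had 441, 488 and 413 CPM in aged 1, 2 and 3, against 884, 559 and 517 CPM in young 4, 5 and 6. All aged libraries lay below all young ones, by a log2 fold change of -0.55 ± 0.25 (SE) (adjusted p = 0.219, edgeR). Psma3 had 292, 409 and 348 CPM in aged libraries, against 1001, 370.4 and 377 CPM in young libraries. Here young 4 alone stood high and aged 2 lay above young 5 and young 6; the log2 fold change was -0.74 ± 0.41 (SE) and shrank to -0.11 without young 4. The remaining members of the common ring had log2 fold changes of -0.75 (Psma2), -0.70 (Psma6), -0.53 (Psma1), -0.49 (Psma5) and -0.45 (Psma4).

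Psma8 was the alpha gene that ran the other way. It had 16.1, 20.8 and 30.9 CPM in aged libraries, against 17.97, 13.4 and 14.9 CPM in young libraries. Aged 2 and aged 3 lay above all young libraries and aged 1 did not, and the log2 fold change of 0.55 ± 0.28 (SE) was not called (adjusted p = 0.258, edgeR). Its level was low: it averaged 10.8 CPM per kb of gene length over the 6 libraries, against 162 CPM per kb for Psma1, the lowest of the other alpha genes. Only the fit with quality weights (limma-voom) called Psma8, and it called it higher, with an adjusted p of 0.0151; over 20 alternatives the adjusted p ran from 0.0151 to 0.616.

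All 7 tested beta ring genes were below 0, against 47.3% of all tested genes, with a median of -0.46. Psmb6, the caspase-like subunit, had 327, 515 and 428 CPM in aged libraries, against 1329, 536 and 504 CPM in young libraries. Young 4 stood far above the rest and aged 2 lay above young 6, so the groups overlapped; the log2 fold change was -0.90 ± 0.41 (SE) and became -0.32 without young 4. Psmb7, the trypsin-like subunit, had 100.1, 84.8 and 80.1 CPM in aged libraries, against 135, 121 and 109 CPM in young libraries. Its groups did not overlap, and its log2 fold change of -0.46 ± 0.17 (SE) (adjusted p = 0.147, edgeR) was -0.41 without young 4. Psmb5, the chymotrypsin-like subunit, had 61.7, 51.4 and 49.3 CPM in aged libraries, against 60.4, 75.3 and 64.6 CPM in young libraries. Aged 1 lay above young 4, and the log2 fold change was -0.30 ± 0.17 (SE). GENCODE names copies called Psmb5-ps, Psmb6-ps, Psmb6-ps2 and Psmb7-ps2, which were not analysed here; how reads shared with such copies were counted is not given in the sources used here, so the levels of these 3 genes are uncertain.

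Among the structural beta genes, Psmb3 had 208, 219 and 186 CPM in aged libraries, against 435, 286 and 250.04 CPM in young libraries. Every aged library was lower, with a log2 fold change of -0.67 ± 0.24 (SE) (adjusted p = 0.149, edgeR). Psmb1, Psmb4 and Psmb2 had log2 fold changes of -0.62, -0.38 and -0.22. Psmb11, the subunit of the thymus form, was the member that was not tested: it had 0, 2 and 1 counts in aged 1, 2 and 3, and 0, 0 and 1 counts in young 4, 5 and 6. A count of 0 allows up to 3 counts, which is 0.132 to 0.239 CPM depending on the library and covers counting error only.

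Levels per gene length, given as CPM per kb with the lengths of the deposited table, differed widely between genes whose proteins stand in equal numbers in the core particle. Psmb6 averaged 411 ± 91.4 CPM per kb in aged and 767 ± 454 CPM per kb in young cells (SD, n = 3 each), and Psmb1 309 ± 30.8 and 475 ± 226 CPM per kb. Psmb5 averaged 62.4 ± 7.63 and 76.9 ± 8.83 CPM per kb, and Psmb7 27.4 ± 3.24 and 37.8 ± 3.93 CPM per kb in aged and young cells. Within the beta ring the order of mean levels over 6 libraries was Psmb6, Psmb1, Psmb4, Psmb3, Psmb2, Psmb5 and Psmb7. Psmb4, Psmb3 and Psmb2 averaged 149 ± 9.89, 108 ± 9.04 and 119 ± 8.73 CPM per kb in aged cells and 194 ± 25.6, 172 ± 52.1 and 139 ± 19.6 CPM per kb in young cells. Within single libraries, Psmb3 stood above Psmb2 in young 4, 5 and 6 (231, 152 and 133 against 158, 140 and 119 CPM per kb). It stood below Psmb2 in aged 1, 2 and 3 (111, 116 and 98.5 against 115, 129 and 112 CPM per kb). Psmb4 stood above Psmb3 in every library but young 4. The order of mean levels depends on the length used, since table lengths were longer than the longest GENCODE transcript for some genes and shorter for others. With the longest transcript, Psmb2 (2.347 kb in the deposited table, 859 bases in GENCODE) moved to 352 CPM per kb from 129. Psma2 (0.938 kb and 2911 bases) moved to 92.7 from 288, while Psmb6 stayed highest and Psmb7 lowest of the beta ring.

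**Figure D2:**
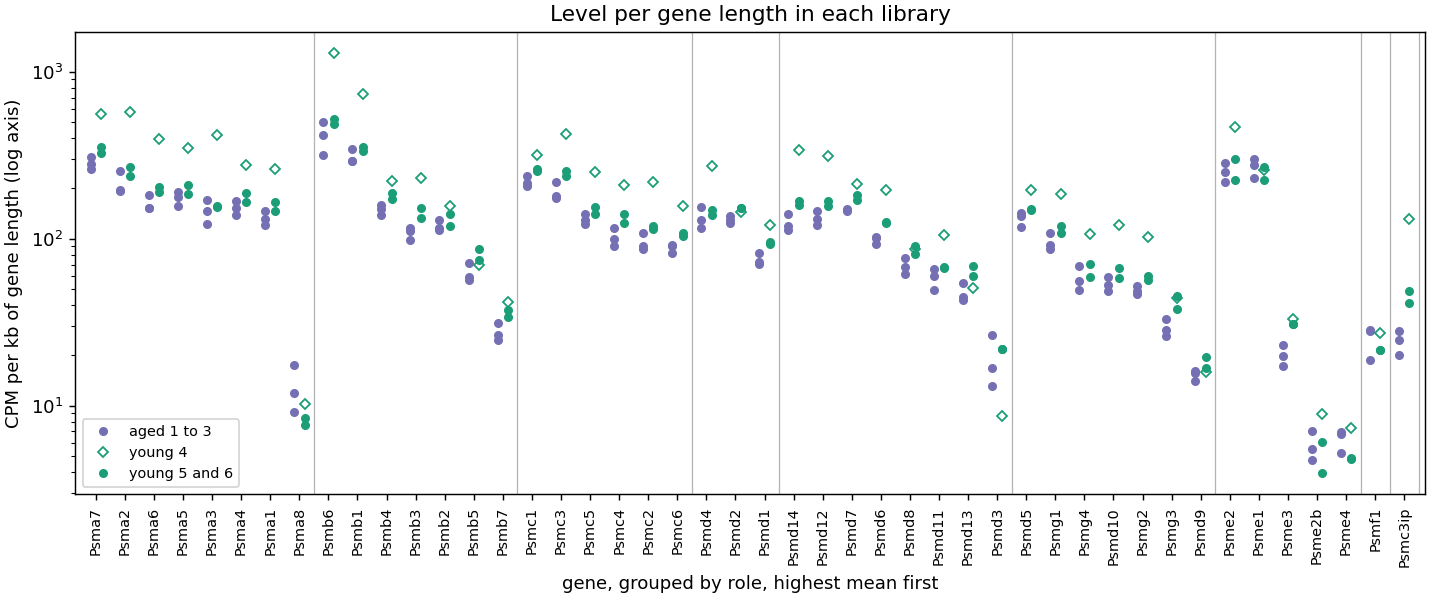
Level per gene length (CPM per kb, log axis) of 46 genes in each library, grouped by role (alpha ring, beta ring, base ATPases, other base subunits, lid, assembly chaperones, activators, inhibitor, Psmc3ip) and ordered by mean within a role; aged points stand left of young points, and young 4 is an open diamond. Psmb6 is the highest gene at 411 CPM per kb in aged and 767 CPM per kb in young cells, and young 4 is the topmost point for most genes.

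In the regulatory particle, all 6 base ATPase genes, Psmc1 to Psmc6, had every aged library below every young one, with a median log2 fold change of -0.56. The same held for 17.6% of all tested genes. Psmc3, the ATPase with the largest difference, had 285, 353 and 292 CPM in aged libraries, against 688, 414 and 386 CPM in young libraries. Psmc4 had 186, 238 and 205 CPM in aged libraries, against 432, 289 and 258 CPM in young libraries. Aged 2 was the highest aged library for both, and young 4 the highest young one; the log2 fold changes were -0.68 ± 0.26 (SE) and -0.64 ± 0.24 (SE), with edgeR adjusted p-values of 0.171 and 0.158. The other ATPase genes lay between -0.67 (Psmc2) and -0.34 (Psmc1). Without young 4 the 6 genes had a median of -0.30.

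Of the 3 other base subunits, Psmd1, the larger scaffold, had 227, 266 and 233 CPM in aged libraries, against 389.9, 308 and 299 CPM in young libraries. The groups did not overlap, and the log2 fold change was -0.46 ± 0.18 (SE) (adjusted p = 0.177, edgeR). Psmd2, the other scaffold, had 379, 416 and 392 CPM in aged libraries, against 437, 464 and 465 CPM in young libraries, and young 4 was its lowest young library. Its difference was small, with a log2 fold change of -0.20 ± 0.16 (SE) that was -0.25 without young 4. Psmd4, a ubiquitin receptor, overlapped between the ages and had a log2 fold change of -0.48 ± 0.29 (SE).

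Of the 8 lid genes, 6 were lower without overlap between the ages (17.6% of all tested genes). A log2 fold change below 0 was found for 7 (47.3% of all tested genes), with a median of -0.41. Psmd14, which cuts ubiquitin chains off substrates, had 173, 214 and 182 CPM in aged libraries, against 517, 259 and 242 CPM in young libraries. All aged libraries were lower, with a log2 fold change of -0.84 ± 0.32 (SE) (adjusted p = 0.160, edgeR) and of -0.42 without young 4. Psmd6 had 129.6, 132 and 119.9 CPM in aged libraries, against 252, 163 and 159 CPM in young libraries, again without overlap; its log2 fold change was -0.59 ± 0.22 (SE). Psmd12, Psmd11, Psmd7 and Psmd8 had log2 fold changes of -0.68, -0.47, -0.35 and -0.32. Psmd13 had a log2 fold change of -0.33, with young 4 as its lowest young library.

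Psmd3 was the exception in the lid. It had 103, 51.1 and 65.1 CPM in aged libraries, against 33.9, 84.7 and 85.0 CPM in young libraries. Aged 1 was highest and young 4 lowest, whereas young 4 was the highest library for 36 of the 46 members, and the log2 fold change of 0.11 ± 0.40 (SE) turned to -0.24 without young 4 and to -0.23 without aged 1. Summed per length, base and lid genes stood at 0.765, 0.731 and 0.773 of the summed alpha and beta genes in aged 1, 2 and 3, against 0.613, 0.768 and 0.793 in young 4, 5 and 6. The balance between regulatory and core particle RNA thus overlapped between the ages and was lowest in young 4.

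**Figure D3:**
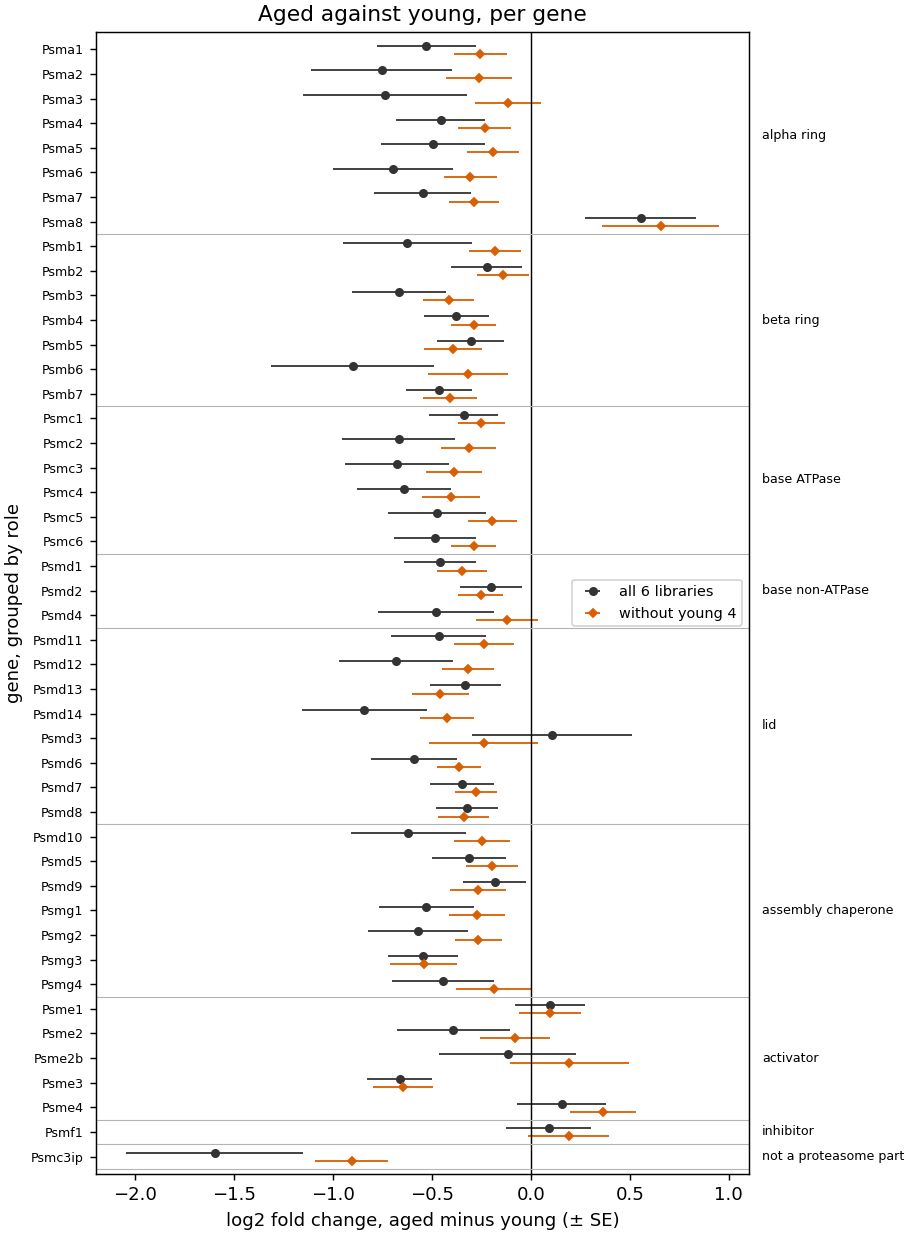
Log2 fold change (aged minus young, ± SE) of each tested gene, grouped by role, from all 6 libraries (black circles) and without young 4 (orange diamonds). With all libraries 41 of 46 points lie left of 0, as do 41 without young 4, where the median moves to -0.27 from -0.48.

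Of the assembly chaperones, all 7 were below 0 (47.3% of all tested genes), with a median of -0.53. Lower values without overlap between the ages were found for 4 (17.6% of all tested genes). Psmg3, part of a chaperone pair for the alpha ring, had 27.6, 21.9 and 23.7 CPM in aged libraries, against 37.0, 38.1 and 31.7 CPM in young libraries. The groups did not overlap and young 4 did not stand out; the log2 fold change of -0.55 ± 0.18 (SE) (adjusted p = 0.116, edgeR) was -0.54 without it. Psmg1, Psmg2 and Psmg4, which also act on the alpha ring, had log2 fold changes of -0.53, -0.57 and -0.44. Psmd10, Psmd5 and Psmd9, which escort base ATPases, had log2 fold changes of -0.62, -0.31 and -0.18.

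Activators were the group that split. Psme3, which encodes the nuclear PA28 gamma, had 46.1, 53.1 and 61.5 CPM in aged libraries, against 89.0, 82.5 and 82.6 CPM in young libraries. The aged libraries lay well below the young ones, young 4 did not stand out, and the log2 fold change of -0.66 ± 0.16 (SE) became -0.65 without young 4. Its edgeR adjusted p was 0.0627, the smallest among members, and it ran from 0.00645 to 0.174 over 20 alternatives; DESeq2, the likelihood ratio test, limma-voom with quality weights and the fit without the GC and length trend called it lower.

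The other activators did not share this pattern. Psme1, PA28 alpha, had 291, 266 and 222 CPM in aged libraries, against 249, 261 and 217 CPM in young libraries, with overlap and a log2 fold change of 0.097 ± 0.18 (SE). Psme2, PA28 beta, its partner in the cytoplasmic ring, had 244, 275 and 210.5 CPM in aged libraries, against 450.4, 289 and 217 CPM in young libraries. Its log2 fold change was -0.39 ± 0.28 (SE), and -0.08 without young 4. Psme4, the large PA200 activator, had 51.4, 68.7 and 66.9 CPM in aged libraries, against 72.5, 47.9 and 47.5 CPM in young libraries. All aged values lay between those of young 5 and young 4, and the log2 fold change was 0.16 ± 0.23 (SE) (edgeR adjusted p = 0.676; 0.0202 to 0.923 over 20 alternatives). Psme2b, a single-exon copy of Psme2, had 5.85, 7.48 and 5.01 CPM in aged and 9.46, 6.38 and 4.16 CPM in young libraries; it lies within Gm12185 on the same strand and shares sequence with Psme2, so its reads are uncertain. The inhibitor gene Psmf1 had 105, 159.6 and 156 CPM in aged libraries, against 153, 121 and 121 CPM in young libraries, which overlapped (log2 fold change 0.092 ± 0.22 (SE)).

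Psmc3ip is a member by its name alone. It encodes HOP2, a protein that binds the ATPase Psmc3 and acts in homologous recombination rather than in protein breakdown. It had 25.9, 29.4 and 21.1 CPM in aged libraries, against 137, 50.8 and 43.2 CPM in young libraries, the largest fold difference of any member. All aged libraries lay below all young ones; the log2 fold change was -1.60 ± 0.45 (SE) (adjusted p = 0.0844, edgeR), and without young 4 it was -0.91 ± 0.19 (SE) (adjusted p = 0.0409). Over 20 alternatives its adjusted p ran from 0.00486 to 0.283 and 7 of them called it lower. Its interval shares its last bases with Mlx, which runs the other way, and reads were not stranded.

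The excess in young 4 was unequal among members. Relative to the mean of young 5 and young 6, CPM in young 4 was 2.92-fold for Psmc3ip and above 2-fold also for Psma3, Psmb6, Psma2, Psmb1 and Psmd14, while 5 members were lower there: Psmd3 (0.399-fold), Psmd13 (0.793-fold), Psmb5 (0.864-fold), Psmd9 (0.872-fold) and Psmd2 (0.940-fold). Deviations of young 4 from the gene mean ran against GC content, with Spearman's rho of -0.29 over the 46 members and -0.43 over 13148 tested genes. Over the members, rho with GC content was 0.34, -0.073 and 0.066 in aged 1, 2 and 3, and 0.46 and 0.19 in young 5 and 6. Over all these genes it was 0.43, -0.11 and 0.18 in aged 1, 2 and 3, and 0.12 and 0.11 in young 5 and 6. With the gene length of the table, the members' rho was -0.057, 0.091 and 0.48 in aged 1, 2 and 3, and -0.30, 0.0048 and 0.26 in young 4, 5 and 6. These values describe genes of the same libraries and carry no p. The fit without that trend is given with the members' medians above.

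**Figure D4:**
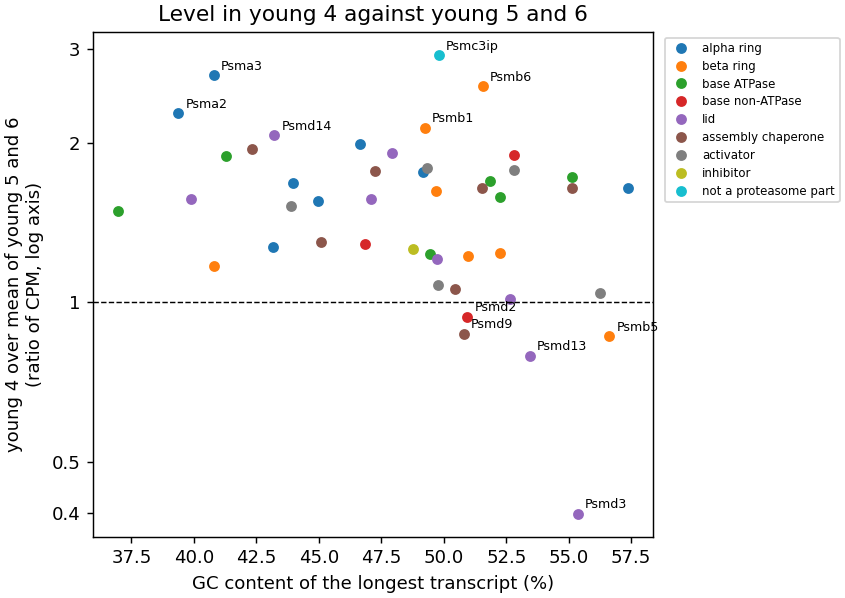
CPM in young 4 divided by the mean of young 5 and 6 (log axis) against the GC content of the longest transcript for 46 genes, coloured by role; the dashed line marks equal levels. The 6 genes above 2 and the 5 genes below 1 are named, from Psmc3ip at 2.92 to Psmd3 at 0.399.

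Genes that work with the proteasome were read in the same fit, from lists written with earlier results of these data known. Of 8 genes for ubiquitin and its E1 enzymes or related activators, 0 were called and 6 were below 0, with a median of -0.30. Over all tested genes, 5.76% were called and 47.3% were below 0. Uba2, a subunit of the activating enzyme for SUMO, had 173, 149 and 138 CPM in aged libraries, against 246, 239 and 229 CPM in young libraries. It was lower without overlap, at a log2 fold change of -0.64 ± 0.16 (SE) (adjusted p = 0.0656, edgeR; 0.0400 without young 4; 0.00167 to 0.273 over 20 alternatives). Of 19 partners such as ubiquitin receptors, shuttles and the maturation factor Pomp, 0 were called. Below 0 were 13 of them, against 47.3% of all tested genes, with a median of -0.20. Uchl5, a deubiquitinase of the base, had 144, 175 and 137 CPM in aged libraries, against 419, 208 and 192 CPM in young libraries, and Usp14, another, had 108, 116 and 114 CPM in aged libraries, against 207, 139.6 and 146 CPM in young libraries. Neither overlapped between the ages; the log2 fold changes were -0.84 ± 0.32 (SE) and -0.54 ± 0.19 (SE), with edgeR adjusted p-values of 0.166 and 0.147.

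Of 10 genes of Nrf1 control and the p97 segregase, 0 were called, 6 were above 0 and 4 below, where 47.3% of all tested genes lay. Nfe2l1 itself had 58.9, 21.4 and 33.0 CPM in aged libraries, against 14.5, 22.4 and 24.2 CPM in young libraries. Aged 2 lay below young 5 and young 6, and the log2 fold change of 0.89 ± 0.39 (SE) was not called (adjusted p = 0.209, edgeR). Nfe2l2, the related factor of oxidative stress, had 132, 133 and 144 CPM in aged libraries, against 111, 116 and 111 CPM in young libraries, higher without overlap but not called (log2 fold change 0.28 ± 0.14 (SE), edgeR adjusted p = 0.256). The 10 genes ran from -0.37 to 0.89 with a median of 0.04, the same as that of all tested genes.

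Inducible catalytic subunits replace the constitutive ones in the immunoproteasome. Psmb8, Psmb9 and Psmb10 had log2 fold changes of 0.095 ± 0.22 (SE), 0.22 ± 0.24 (SE) and 0.084 ± 0.17 (SE), none called. Within each library, Psmb8 stood at 7.48, 10.2 and 7.26 times the level per length of Psmb5 in aged 1, 2 and 3, against 8.08, 5.55 and 5.45 times in young 4, 5 and 6. Psmb9 stood at 0.801, 0.421 and 0.351 times Psmb6 in aged libraries, against 0.131, 0.394 and 0.311 times in young libraries. Both ratios overlapped between the ages. Psmb10 stood at 5.38, 7.01 and 5.90 times Psmb7 in aged libraries, against 4.00, 4.41 and 4.03 times in young libraries, with no overlap.

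The 3 inducible genes together stood at 2.27, 1.70 and 1.42 times the 3 constitutive ones in aged 1, 2 and 3, against 0.641, 1.32 and 1.16 times in young 4, 5 and 6. Aged libraries were all higher, though aged 3 and young 5 were close. Each sum leans on the gene with the highest level. Psmb6 averaged 411 and 767 CPM per kb in aged and young cells, and Psmb8 516 and 483 CPM per kb. Psmb8 is paired with Psmb5 and not with Psmb6, so these ratios do not show an exchange within each pair. These ratios depend on the lengths used: with the longest GENCODE transcript they were 1.29, 1.002 and 0.846 in aged libraries, against 0.380, 0.769 and 0.684 in young libraries, still without overlap. They were not tested, and with 3 libraries against 3 an exact two-sided permutation test could not go below 0.1.

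**Figure D5:**
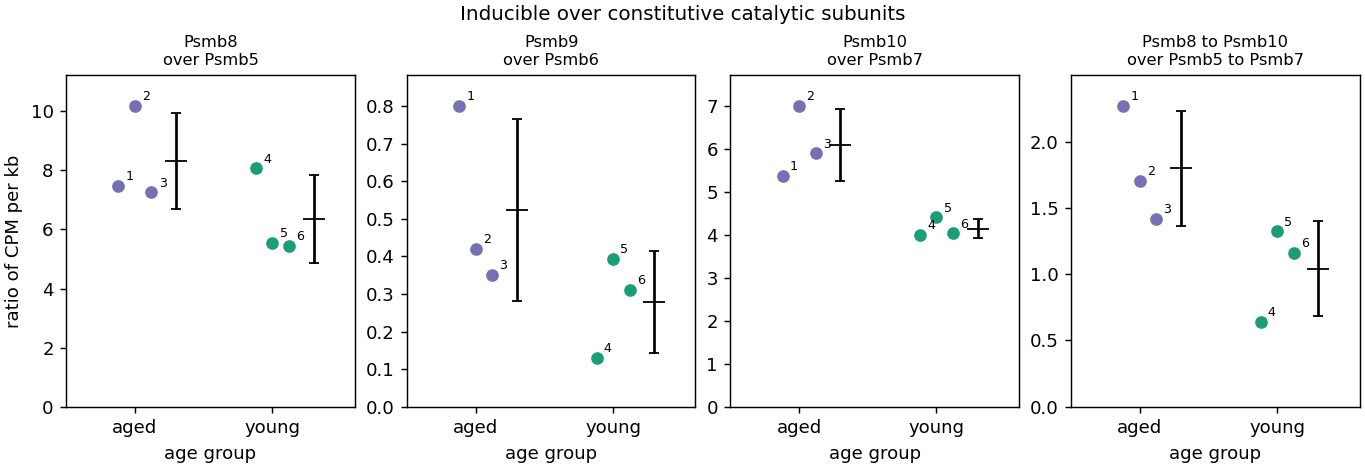
Ratio of CPM per kb of inducible to constitutive catalytic subunit genes in each library (points labelled by library number, aged left of young), with mean and SD beside them (n = 3). Psmb10 over Psmb7 and the 3 inducible genes summed over the 3 constitutive ones do not overlap between the ages. Psmb8 over Psmb5 and Psmb9 over Psmb6 do.

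PA28, the activator that is often induced with the immunoproteasome, was set against the core in the same way. Psme1 and Psme2 together stood at 0.239, 0.203 and 0.192 of the summed alpha and beta genes per length in aged 1, 2 and 3, against 0.130, 0.188 and 0.162 in young 4, 5 and 6. The groups did not overlap with table lengths, but they overlapped narrowly with the longest transcripts. The beta to alpha ratio was 0.898, 0.924 and 0.960 in aged libraries, against 0.968, 0.952 and 0.955 in young libraries, with overlap.

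Where a member sits in the genome limits some values. The table's coordinates are those of mm10. Psme3 lies on chromosome 11 from 101316251 to 101323530 on the plus strand, Psmc3ip on chromosome 11 from 101092141 to 101095435 on the minus strand, Psmd14 on chromosome 2 from 61711694 to 61800376 on the plus strand and Psmb6 on chromosome 11 from 70525357 to 70527858 on the plus strand. The intervals of 7 members overlapped another gene that is not a small RNA, on either strand: Psma3, Psma4, Psmb2, Psmc3ip, Psmd1, Psme1 and Psme2b. Whether exons overlap was not examined, and reads there cannot be assigned to a strand.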

How the data were processed

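Per the labels' protocols, total RNA was amplified with the SMART-Seq v4 kit, which does not mark strand, and sequenced as single reads of 51 cycles. Build mm10, HTSeq 0.11.1, STAR 2.6.0, Trimmomatic and edgeR are named in the submitters' processing notes, without roles or settings. Counts of reads per gene were deposited as whole numbers, unnormalized, in 1 table that also holds coordinates and a length in kb. Groups came from sample titles; replicate numbers are not shared between ages. Aged was compared with young in 1 fit of all 6 libraries with R 4.3.3 and edgeR 4.0.16 (TMM scaling, the filterByExpr minimum, glmQLFit, glmQLFTest), adjusted by Benjamini-Hochberg over 13413 genes at 0.05. A standard error (SE) is the size of the log2 fold change divided by the square root of F. CPM values are TMM-scaled without a pseudocount. Members and lists were chosen with earlier results of these data known. Named were all members, with values per library for the 10 smallest p in each direction, catalytic, activator and inhibitor genes, and the highest and lowest levels; values of Psma3, Psma7 and Psmd2 were known when these were added. Simulated data with known changes were used to test the fit. It called 18 of 98 genes changed 2-fold (18.4%), 88 of 98 changed 4-fold (89.8%) and 2 of 13071 unchanged genes. Alternatives were other scalings and filters, DESeq2 1.42.0, limma-voom (limma 3.58.1), robust empirical Bayes, a likelihood ratio test, counts thinned to the depth of the smallest library, genes above 1% of a library dropped, a GC and length trend and each library left out. Longest GENCODE M21 transcripts as lengths were added after seeing the data.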

Additional observations from a re-analysis of the deposited data

How the results depend on the processing

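No paired analysis was possible because aged and young libraries share no replicate number. Of the 46 members, 40 were below 0 with all libraries and with each library left out. The number of members called, 0 with all libraries, was 0 to 1 with a library left out (Psmc3ip, without young 4), 1 without young 4 and aged 2, 1 without a filter on low counts, 2 by DESeq2, by the likelihood ratio test and without the GC and length trend (Psmc3ip and Psme3 each time), and 17 by limma-voom with quality weights (15 lower, 2 higher, against 13.2% and 17.3% of all genes). Without young 4 and aged 2, 216 of all 13511 tested genes were called lower and 434 higher. Without a filter on low counts, 342 of 21778 were called lower and 628 higher. The members' median ran from -0.62 without young 6 to -0.27 without young 4. Over the whole table, genes called aged against young, higher and lower, numbered 772 with all libraries, 74 without young 5, 85 without aged 3, 88 without young 6, 129 without aged 2, 282 without aged 1 and 1029 without young 4, and 443 at 5 CPM or more in 3 libraries, 1365 without the GC and length trend, 1898 by DESeq2, 1910 by the likelihood ratio test and 4094 by limma-voom with quality weights. Higher genes made up 74% of calls with all libraries and 50.3% without that trend. Of the pathway genes, 0 were called with all libraries (5.76% of all genes) and 0 to 1 with a library left out. DESeq2 (5.39% of all genes lower, 7.62% higher) called 1. The likelihood ratio test (5.22% lower, 9.02% higher) and the fit without that trend (5.16% lower, 5.22% higher) also called 1 each. Limma-voom with quality weights called 5 (13.2% of all genes lower, 17.3% higher).

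Members near 0 changed sign. Psmd3, 0.11 with all libraries and -0.24 to 0.30 with a library left out, was -0.39 by limma-voom with quality weights, -0.31 without that trend, -0.23 without aged 1, -0.24 without young 4 and -0.045 without young 4 and aged 2. Psme2b, -0.12 with all libraries and -0.37 to 0.20 with a library left out, was 0.098 with no scaling, 0.12 by limma-voom with quality weights, 0.095 without that trend, 0.0081 without aged 3, 0.20 without young 4 and 0.012 without young 4 and aged 2. Psme1 was -0.020 and Psmf1 -0.063 without that trend, and Psmf1 was -0.036 without aged 2 and up to 0.26 with another library left out. The causes were not tested.

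With the longest transcript as length, mean ratios in aged and young cells were 0.722 and 0.698 for base and lid over core, 0.156 and 0.126 for PA28 over core, and 1.07 and 1.096 for beta over alpha. They were 5.50 and 4.20 for Psmb8 over Psmb5, 0.136 and 0.0725 for Psmb9 over Psmb6, and 5.19 and 3.53 for Psmb10 over Psmb7. For the 3 inducible genes summed over the 3 constitutive ones they were 1.05 and 0.611. On the plus strand alone, 3 member promoters held TGACNNNGC (7.14%, against 6.38% of all promoters and 7.77% of those of tested genes), 10 CCGGAAG (23.8%, against 4.77% and 9.35%) and 4 the NRF1 motif (9.52%, against 2.82% and 5.82%). CCAAT turned its direction against all promoters: 13 held it on the plus strand (31%, against 21.1% and 21.5%), whereas on both strands its share was below theirs. Coding lengths were not run as an alternative. Psmb11 had at most 2 counts in a library and was left out of every test but those without a filter.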
